A study of Homo sapiens with 12 samples.

Results

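The rhodanese family genes TST, MPST, TSTD1, TSTD2, TSTD3 and MOCS3 were examined across RNA sequencing libraries of HepG2, a line from a human hepatocellular carcinoma. These 6 genes were picked by name, and each matched 1 Ensembl identifier among the 57500 genes counted. The libraries fall into 3 groups of 4 replicates. WT cells served as controls, shTST cells carried a lentiviral shRNA against TST, and overTST cells carried a lentiviral vector with a codon-optimized TST coding sequence behind a CMV promoter. All cells were kept in standard medium with 400 µM glycine for 24 h. Transduced cells were selected with blasticidin, and none of the 12 libraries is labelled as an empty-vector or scrambled-shRNA control. The response to the altered TST level and an effect of transduction, selection or the line itself therefore cannot be told apart. This holds for a difference from WT in either line, also where the other line does not move.

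Rhodanese domains carry sulfur on a cysteine of the active site and pass it on to an acceptor. TST (thiosulfate sulfurtransferase, or rhodanese) is a mitochondrial enzyme that moves sulfur from thiosulfate to cyanide and so forms thiocyanate, and it is abundant in liver. MPST takes sulfur from 3-mercaptopyruvate, a product of cysteine breakdown, and can release it as hydrogen sulfide with thioredoxin as reductant. TSTD1 transfers sulfur from thiosulfate to glutathione. MOCS3 ends in a rhodanese domain that hands sulfur to URM1, for the thiolation of tRNA, and to MOCS2, for the molybdenum cofactor.

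TST (ENSG00000128311) and MPST (ENSG00000128309) lie next to each other on chromosome 22 of GRCh38 and are transcribed away from each other. TST runs on the minus strand from 37010859 to 37020183 and MPST on the plus strand from 37019635 to 37029822. Both genes overlap by 549 bases, but nearly all of this stretch is intron in one of them. The exons counted for them share 6 bases, from 37019635 to 37019640, which is 0.310% of the 1937 exonic bases of TST and 0.0888% of the 6760 of MPST. Exonic reads of TST and MPST were therefore nearly separate by position, whatever use the counting made of strand. Reads from unspliced RNA in the 549 overlapping bases were not examined.

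TST and MPST are paralogs, so the coding sequences were also compared for stretches that a short read could not assign. Over 882 aligned bases, 603 were identical (68.4%), and the longest exact run was 20 bases. Among the other 14 pairs of the family the longest run was 8 to 11 bases, and 57.5% to 66.7% of the aligned bases were identical. The stretch around that run is shown because it holds the longest exact match of TST and MPST. Likeness over the length of a read was not measured. It was read 5′ to 3′ from the GENCODE 29 coding sequences of TST-201 (bases 763 to 818) and MPST-206 (bases 823 to 878), with the shared run in capitals.
TST: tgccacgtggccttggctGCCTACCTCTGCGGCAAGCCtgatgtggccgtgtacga
MPST: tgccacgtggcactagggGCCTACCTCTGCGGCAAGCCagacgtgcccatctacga
Both sides of the run differ within a few bases.

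The other members share more of their exons with neighbours. TSTD2 (ENSG00000136925, chromosome 9, minus strand, 97600080 to 97633575) shares 1669 of its 5875 exonic bases with TMOD1 on the opposite strand, or 28.4%. TMOD1 itself had 2 to 13 counts per library. TSTD3 (ENSG00000228439, chromosome 6, plus strand, 99520693 to 99531918) shares 208 of 962 exonic bases with USP45 on the opposite strand and 13 with a small RNA gene that had no count. GENCODE 29 lists TSTD3 as protein coding, whereas the RefSeq table for GRCh38.p14 lists it as a transcribed pseudogene. TSTD1 (ENSG00000215845, chromosome 1, minus strand, 161037631 to 161038990) shares 83 of 1210 exonic bases with the same-strand gene AL591806.3, which had 0 to 4 counts. The single exon of MOCS3 (ENSG00000124217, chromosome 20, plus strand, 50958826 to 50963931) overlaps no other counted gene. The counts of TSTD2 and TSTD3 are uncertain in the shared bases.

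Library totals were 28866175 to 45120508 counts in WT, 27527854 to 33865386 in shTST and 22911380 to 27414142 in overTST. Of 9 hepatocyte markers, all were present in every group, with a summed level of 21704 to 28924 CPM (counts scaled to library size, with TMM factors over the 12 libraries). Of 8 markers of leukocytes, endothelium and fibroblasts, the summed level was 29.4 to 33.9 CPM in WT, 23.98 to 25.7 in shTST and 23.6 to 26.9 in overTST, of which PDGFRB made up 14.7 CPM or more in every library. PTPRC, the pan-leukocyte marker, had no count in WT and overTST and 1 count in shTST. Of the 9 hepatocyte markers, 6 were called with shTST (4 higher and 2 lower) and 4 with overTST (2 higher and 2 lower). Among all genes tested, 16.1% were called with shTST and 33.9% with overTST. Of the 5 other markers tested, 1 was called with shTST, lower, and 3 with overTST (1 higher and 2 lower). The part of these other markers in the results was not tested. In bulk RNA, fewer cells that express a gene and less RNA per cell cannot be told apart.

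Levels of different genes were compared as CPM per kilobase of exon. In WT, TST was at 25.3 ± 1.34 and MPST at 24.2 ± 1.45 (SD, n = 4), and their ranges of 24.4 to 27.2 and 22.3 to 25.9 overlapped. MOCS3 followed at 5.89 ± 0.506, TSTD2 at 1.61 ± 0.192 and TSTD3 at 1.01 ± 0.141, each below the range of the gene before it. TSTD1 was close to absent. Over all libraries, TST and MPST stood above 87.0% of the 14883 genes tested, MOCS3 above 61.9%, TSTD2 above 34.5% and TSTD3 above 30.9%. With the length of the longest annotated transcript in place of the exonic length, MPST (27.8) came before TST (27.3) in WT, so that the order of these neighbours is not settled.

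In shTST, MPST stood first with either length, at 22.2 ± 1.90 CPM per kilobase of exon above TST at 17.6 ± 0.837 (SD, n = 4), without overlap between their ranges. In overTST, TST at 29.9 ± 2.53 and MPST at 26.4 ± 2.12 overlapped, as in WT. TSTD3 (1.47 ± 0.229) stood above TSTD2 (1.06 ± 0.0759) in overTST, whereas TSTD2 stood above TSTD3 in both other groups. With the longest transcript length the overTST values were nearly equal, at 1.47 for TSTD3 and 1.45 for TSTD2, so that their order in overTST depends on the length used.

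**Figure D1:**
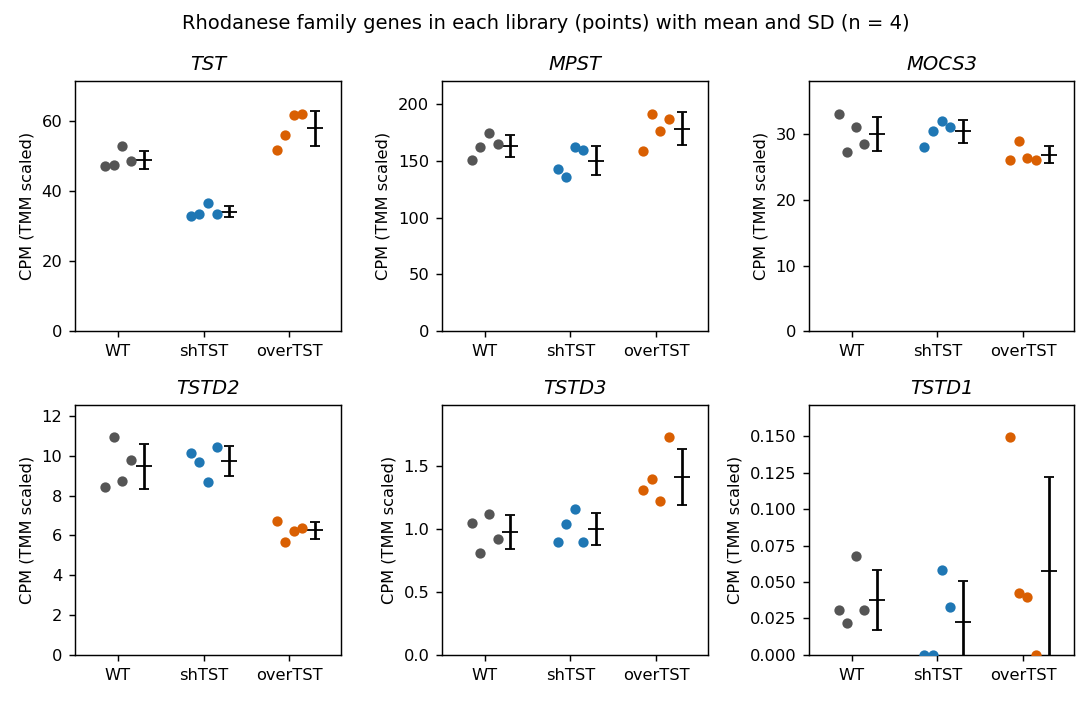
CPM (TMM scaled) of each family gene by group, with 1 point per library and the mean ± SD of 4 libraries beside them. TST is lowest in shTST, TSTD2 is lowest in overTST, and TSTD1 is at 0.149 CPM or less in every library.

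The silenced gene was measured first. TST stood at 47.2, 47.5, 52.8 and 48.5 CPM in WT replicates 1 to 4. In shTST replicates 1 to 4 it stood at 33.0, 33.5, 36.5 and 33.5 CPM. All 4 shTST libraries lay below all 4 WT libraries. TST fell to 0.698 of its WT level, a log2 fold change of −0.52 (SE, the standard error, 0.055, edgeR adjusted p = 3.2e-06). An exact permutation test of the CPM values, two-sided, gave p = 0.0286, and groups of 4 cannot give less. Each shTST library still held 922 to 1261 counts of TST.

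In overTST replicates 1 to 4, TST stood at 51.8, 56.0, 61.6 and 62.1 CPM. Replicate 1 lay within the WT range and the other 3 lay above it. The log2 fold change was 0.24 (SE 0.062, edgeR adjusted p = 0.00384; exact permutation test, p = 0.0571), or 1.18-fold. The transgene was codon optimized, so its transcripts need not be among these counts, and reads of the native gene and the transgene cannot be told apart in them. The study also reports western blots for TST overexpression and downregulation in its HepG2 lines, and these counts do not measure protein. When fold changes were corrected for gene length, the log2 fold change of TST was 0.097 (edgeR adjusted p = 0.201). Set directly against each other in a fit of all 12 libraries, shTST was 0.76 lower than overTST on the log2 scale (SE 0.061, edgeR adjusted p = 3.3e-09), with no overlap between the groups.

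MPST, the neighbouring and most similar gene, had smaller differences. It stood at 151.0, 162.4, 174.9 and 165.1 CPM in WT replicates 1 to 4. In shTST it stood at 142.4, 135.9, 162.2 and 159.6 CPM, and in overTST at 159.1, 191.5, 176.5 and 186.6 CPM. The 3 groups overlapped, with the lowest library in shTST and the highest in overTST. Against WT, neither line passed the test: the log2 fold change was −0.12 with shTST (SE 0.055, edgeR adjusted p = 0.141) and 0.13 with overTST (SE 0.057, edgeR adjusted p = 0.0869). Set directly against overTST, shTST had lower MPST, with a log2 fold change of −0.25 (SE 0.060, edgeR adjusted p = 0.00241), although these groups also overlapped (exact permutation test, p = 0.0857). The MPST result for overTST depended on the scaling, since the length correction raised it to 0.21 (edgeR adjusted p = 0.00913) and upper-quartile scaling to 0.15 (edgeR adjusted p = 0.0398). Single libraries also decided it, with 0.16 without WT replicate 3 (edgeR adjusted p = 0.0423) and 0.18 without overTST replicate 1 (edgeR adjusted p = 0.00924).

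The ratio of TST to MPST does not depend on library size. Per kilobase of exon, it was 1.09, 1.02, 1.05 and 1.02 in WT replicates 1 to 4. In shTST it was 0.808, 0.861, 0.786 and 0.732. Every shTST library had a lower ratio than every WT library, so TST was lower relative to its neighbour in shTST than in WT. In overTST the ratio was 1.14, 1.02, 1.22 and 1.16, with replicate 2 at the lowest WT value and the other 3 above all WT values.

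TSTD2 was the family member with the largest difference in overTST among those that passed. Its level was 8.42, 10.9, 8.76 and 9.78 CPM in WT replicates 1 to 4. In shTST it was 10.2, 9.71, 8.69 and 10.4 CPM. In overTST it was 6.75, 5.67, 6.23 and 6.36 CPM. The overTST libraries, with 134 to 181 counts each, lay below all 8 others, whereas shTST and WT overlapped. TSTD2 fell to 0.659 of its WT level in overTST, a log2 fold change of −0.60 (SE 0.11, edgeR adjusted p = 1.1e-04; exact permutation test, p = 0.0286). With shTST the log2 fold change was 0.032 (SE 0.094, edgeR adjusted p = 0.853). In the direct comparison TSTD2 was higher in shTST than in overTST by 0.64 (SE 0.10, edgeR adjusted p = 4.5e-05). The overlapping gene TMOD1 was at 0.400 CPM or less in WT and 0.182 or less in overTST, so that it was too low for the test.

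MOCS3 had a smaller difference in the same direction. It stood at 33.2, 27.4, 31.1 and 28.6 CPM in WT replicates 1 to 4. In shTST it stood at 28.1, 30.5, 32.1 and 31.2 CPM, and in overTST at 26.1, 28.95, 26.5 and 26.2 CPM. In overTST, replicate 2 lay apart from the other 3 and inside the range of both other groups. Against WT the log2 fold change was −0.16 with overTST (SE 0.070, edgeR adjusted p = 0.0896) and 0.024 with shTST (SE 0.065, edgeR adjusted p = 0.841), and neither passed. Directly, shTST exceeded overTST by 0.18 (SE 0.067, edgeR adjusted p = 0.0403; exact permutation test, p = 0.0571). Without WT replicate 2 the overTST value was −0.20 (edgeR adjusted p = 0.0317). The direct call was lost without shTST replicate 2, 3 or 4 and without overTST replicate 1, 3 or 4 (edgeR adjusted p = 0.0712 to 0.112 in these 6 fits), after the length correction (edgeR adjusted p = 0.101), after the GC correction (0.12, edgeR adjusted p = 0.165) and with upper-quartile scaling (edgeR adjusted p = 0.0511).

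Because TSTD2 and MOCS3 were both lower in overTST than in shTST, their promoter windows are printed, from 250 bases before to 50 bases after the start, as RefSeq places it on GRCh38.p14. Promoter windows of 3 members were found in that table. The motif ACTTCCGG, which the ETS family of transcription factors is known to bind, was searched on both strands after the windows had been read, and it is in capitals. No other motif was searched.
TSTD2, chr9:97633319-97633618, minus strand: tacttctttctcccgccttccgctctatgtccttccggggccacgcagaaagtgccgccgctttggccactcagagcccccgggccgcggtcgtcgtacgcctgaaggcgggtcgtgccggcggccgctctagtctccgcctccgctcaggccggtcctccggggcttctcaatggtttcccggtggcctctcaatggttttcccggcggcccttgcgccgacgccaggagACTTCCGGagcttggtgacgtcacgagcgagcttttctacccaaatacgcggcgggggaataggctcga
MOCS3, chr20:50958568-50958867, plus strand: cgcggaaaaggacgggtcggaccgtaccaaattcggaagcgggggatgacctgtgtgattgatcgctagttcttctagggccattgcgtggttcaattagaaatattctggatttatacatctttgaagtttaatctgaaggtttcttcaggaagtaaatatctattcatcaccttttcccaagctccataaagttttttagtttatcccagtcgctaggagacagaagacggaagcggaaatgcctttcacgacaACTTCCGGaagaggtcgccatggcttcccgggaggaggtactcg
The motif is not in the window of TSTD1, and 4.14% of 35116 promoter windows of this length hold it on either strand. Since it was picked from these windows, its presence in both is a description only, and a match of letters does not show a binding site.

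TSTD3 was counted at a low level, with 25 to 40 counts per library. Its level was 0.812 to 1.12 CPM in WT, 0.894 to 1.16 in shTST and 1.22, 1.31, 1.40 and 1.73 in overTST. The overTST libraries lay above all others (exact permutation test against WT, p = 0.0286), but the fit across genes did not call the difference, at a log2 fold change of 0.54 (SE 0.22, edgeR adjusted p = 0.0593). This value sat at the threshold, with adjusted p of 0.0356 to 0.223 over the 9 other settings without the replicate numbers. With shTST the log2 fold change was 0.054 (SE 0.22, edgeR adjusted p = 0.898). USP45, which shares exonic bases with TSTD3, had log2 fold changes of 0.09 in both comparisons (SE 0.13 each), and neither passed.

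TSTD1 had 1, 1, 2 and 1 counts in WT replicates 1 to 4, 0, 0, 2 and 1 in shTST and 4, 1, 1 and 0 in overTST. It did not pass the filter on low counts and was not tested. The libraries without a count allow up to 0.107 (shTST replicate 1), 0.100 (shTST replicate 2) and 0.136 (overTST replicate 4) CPM, or 3 counts each, a limit that covers counting error only. Differences between groups were not detectable at this depth.

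Across the family, 5 of 6 genes passed the filter. With shTST, 1 of these 5 (TST) was called, lower, where 16.1% of all 14584 genes tested were called (6.69% higher and 9.4% lower). With overTST, 2 of 5 were called, TST higher and TSTD2 lower, against 33.9% of 14421 genes (15.7% higher and 18.2% lower). In the direct comparison of shTST and overTST, 4 of 5 were called, TST and MPST lower and TSTD2 and MOCS3 higher in shTST, against 33% of 14883 genes (16.9% higher and 16.1% lower). With 1 library left out this count was 3 to 4, depending on MOCS3. The MPST and MOCS3 values overlapped between these groups. Groups did not overlap for 1 of 5 genes with shTST (19.1% of all genes), 2 of 5 with overTST (30.4%) and 3 of 5 in the direct comparison (29.2%). TST is the gene that both constructs were made to alter, so its results do not speak for the rest of the family. Apart from TST, no member was called with shTST, and TSTD2 alone was called with overTST. With overTST, 2 to 3 members were called with 1 library left out. Over the 9 other settings without the replicate numbers, 2 to 4 were called. With TST counted, the shares of called members against WT are near those of all genes. Both comparisons with WT share the WT libraries.

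**Figure D2:**
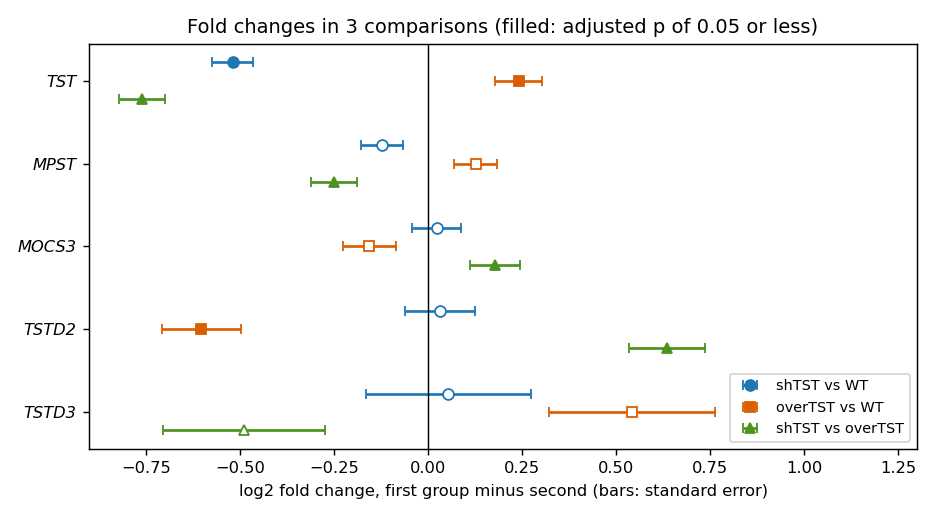
Log2 fold change (first group minus second) with its standard error for the 5 tested family genes in 3 comparisons, filled where the edgeR adjusted p was 0.05 or less. TST moved down with shTST (−0.52), while TSTD2 moved down with overTST (−0.60) and lies at 0.64 in the direct comparison.

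**Figure D3:**
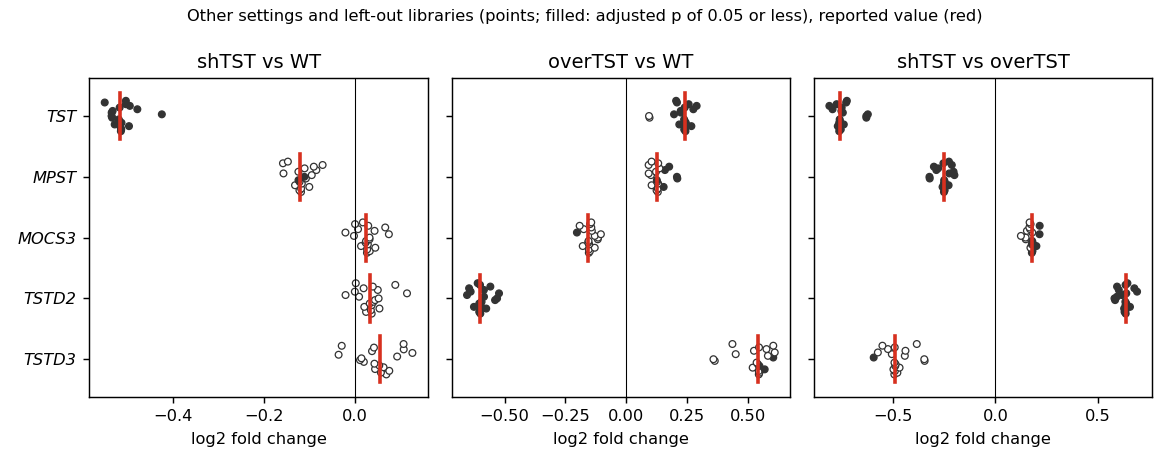
Log2 fold changes of the same 5 genes under each other setting and with each library left out (points, filled where the adjusted p was 0.05 or less), beside the reported value (red line). The points of TST with shTST (−0.55 to −0.43) and of TSTD2 with overTST (−0.65 to −0.52) are all filled, while those of MPST with overTST and of MOCS3 in the direct comparison are mixed.

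Genes that supply or take up the sulfur carried by TST and MPST were described next. For scale, 16.1% of all genes tested were called with shTST, 33.9% with overTST and 33% in the direct comparison. Of 8 enzymes of cysteine breakdown and sulfide oxidation, 2 fell with shTST (median log2 fold change −0.14, against 0.0040 over all genes). GOT1, the cytosolic aminotransferase that forms 3-mercaptopyruvate, was at 125 ± 3.66 CPM in shTST against 167 ± 9.22 in WT (SD, n = 4), a log2 fold change of −0.41 (SE 0.05, edgeR adjusted p = 5.0e-06). SQOR, which oxidizes sulfide in mitochondria, had −0.33 (edgeR adjusted p = 0.00796). ETHE1, the mitochondrial persulfide dioxygenase that forms sulfite, was at −0.06 (edgeR adjusted p = 0.602). With overTST, 1 of the 8 fell, CDO1, the dioxygenase that commits cysteine to taurine and sulfite, at −0.71 (SE 0.18, edgeR adjusted p = 0.00378), and the list's median was 0.00074. This count was 2 without overTST replicate 1. Directly, 5 of 8 differed, with GOT1 (−0.40), SQOR (−0.48), CBS (−0.33) and ETHE1 (−0.20) lower and CDO1 (0.97) higher in shTST, and 3 differed without overTST replicate 3.

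The thioredoxin and glutaredoxin list holds 7 genes. Its counts stand beside 16.1% of all genes tested with shTST, 33.9% with overTST and 33% in the direct comparison. With shTST 1 fell, the glutaredoxin GLRX (log2 fold change −0.28, edgeR adjusted p = 0.00168), and 2 were called without WT replicate 3. With overTST 3 rose and 1 fell. Thioredoxin TXN, a reductant for MPST, rose to 142 ± 5.82 CPM from 109 ± 8.49 in WT (SD, n = 4), a log2 fold change of 0.39 (SE 0.06, edgeR adjusted p = 1.3e-05). GLRX (0.19) and the mitochondrial thioredoxin TXN2 (0.17) also rose, and thioredoxin reductase TXNRD1 fell by 0.19. Without WT replicate 1 or overTST replicate 3, 2 were called in place of 4. In the direct comparison 5 of 7 were called, among them GLRX (−0.47), TXN (−0.25) and TXN2 (−0.18), which were lower in shTST, and the glutathione reductase GSR (0.19), which was higher, and 2 were called after the length correction.

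Of 14 genes that work with MOCS3 or use its product, 13 were tested, since XDH had no count. Among all genes tested, 16.1% were called with shTST, 33.9% with overTST and 33% in the direct comparison. With shTST the pair CTU1 (−0.32, edgeR adjusted p = 0.0209) and CTU2 (−0.27, edgeR adjusted p = 0.00341) fell, the subunits of the enzyme that thiolates tRNA with sulfur from URM1. URM1, the sulfur acceptor of MOCS3, was at −0.05 (edgeR adjusted p = 0.534). This count of 2 was 1 without WT replicate 3, shTST replicate 1 or shTST replicate 4. With overTST 4 rose and 3 fell. Both acceptors of sulfur from MOCS3 rose, URM1 by 0.16 (edgeR adjusted p = 0.0206) and MOCS2 by 0.16 (edgeR adjusted p = 0.0361). The molybdoenzyme MARC2 also rose, by 0.25 (edgeR adjusted p = 0.0489), and MARC1 was not called (0.0016, edgeR adjusted p = 0.985). Gephyrin, GPHN, which inserts molybdenum into the cofactor, fell by 0.42 (SE 0.07, edgeR adjusted p = 6.2e-05), the molybdoenzyme AOX1 by 0.30 and the cofactor sulfurase MOCOS also (edgeR adjusted p = 0.00470), while LYRM4, a partner of the cysteine desulfurase NFS1, rose by 0.17. These 7 calls numbered 3 with no filter and 4 without WT replicate 2, WT replicate 4, overTST replicate 2 or overTST replicate 4. In the direct comparison 5 were called, with CTU1 (−0.51), CTU2 (−0.29) and URM1 (−0.21) lower and AOX1 (0.34) and GPHN (0.25) higher in shTST, and 8 after the length correction.

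More distant proteins with a rhodanese-like domain are the CDC25 phosphatases, the MAP kinase phosphatases of the DUSP group, STYXL1, USP8 and TBCK. Of 16 such genes, 15 were tested, as DUSP2 had no count. The shares called among all genes tested were 16.1% with shTST, 33.9% with overTST and 33% in the direct comparison. With shTST, DUSP10 (0.80, edgeR adjusted p = 0.00296) and the cell cycle phosphatase CDC25A (0.25, edgeR adjusted p = 0.00470) rose and DUSP6 fell by 0.32 (edgeR adjusted p = 0.0407). The DUSP6 ranges overlapped, at 20.8 to 31.1 CPM in WT and 17.8 to 22.2 in shTST. With no filter 6 were called. With overTST, the ERK phosphatase DUSP5 was at 6.13 CPM on average against 2.95 in WT, a log2 fold change of 1.04 (SE 0.13, edgeR adjusted p = 2.7e-06). DUSP9 rose by 0.13, and the deubiquitinase USP8 fell by 0.23. In place of 3 calls there was 1 after the length correction or without overTST replicate 3 or 4, and there were 5 with upper-quartile scaling. Directly, 5 of 15 differed, led by DUSP5 at −1.31 (edgeR adjusted p = 5.7e-07). Over these 4 lists and 3 comparisons, the median log2 fold change farthest from 0 was −0.19.

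**Figure D4:**
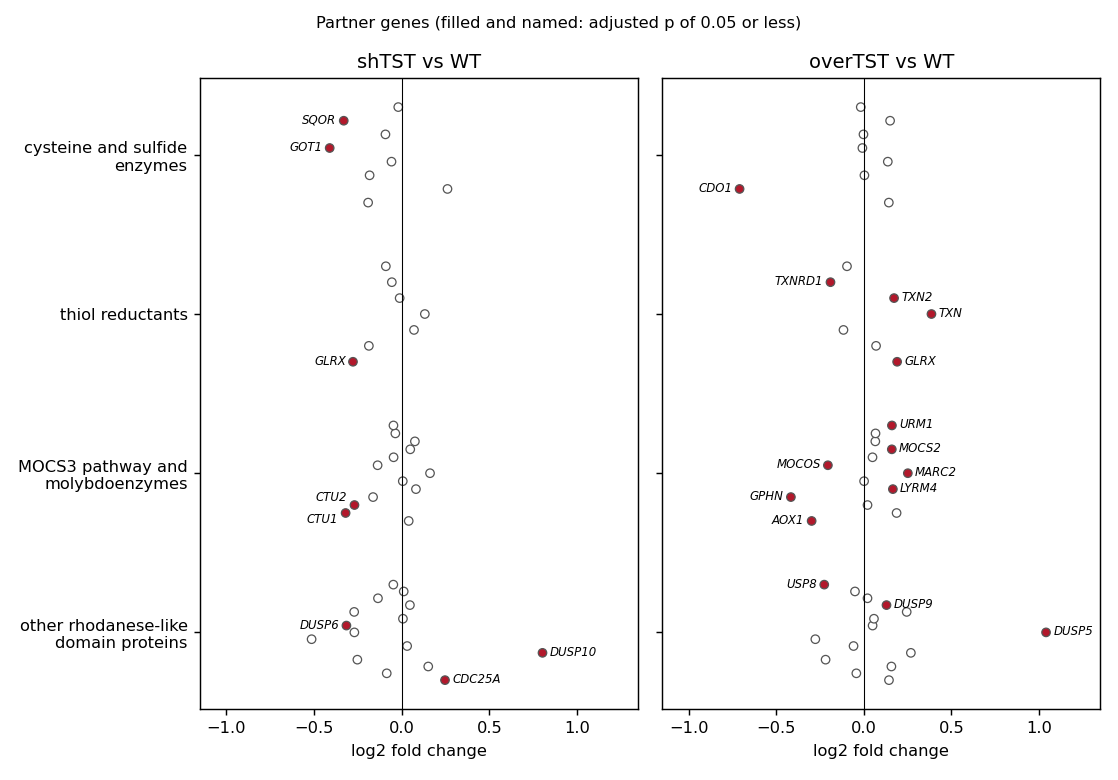
Log2 fold changes against WT for the partner genes in 4 lists, with 1 point per gene, filled and named where the edgeR adjusted p was 0.05 or less. GOT1 (−0.41) and SQOR (−0.33) are the called genes of their list with shTST, and CDO1 (−0.71) and DUSP5 (1.04) lie farthest out with overTST.

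The genes whose pattern over the 12 libraries lay nearest to those of TST and MPST were found by the root mean square difference of mean-centred log2 CPM, among 11524 genes with a mean log2 CPM of 1 or more. Nearest to TST were GBP2 (0.091), COTL1 (0.11) and GPSM1 (0.12), where the median gene was at 0.35. COTL1 averaged 49.4 CPM in shTST, 70.9 in WT and 84.5 in overTST. Nearest to MPST were SCO2 (0.042), FKBP8 (0.044) and CDC34 (0.044), where the median gene was at 0.19. MPST itself was at 0.23 from TST and ranked at 547 of 11527 genes. These distances describe libraries that share their depth and groups and carry no test.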

How the data were processed

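Total RNA of 12 HepG2 samples was sequenced, with 4 libraries in each of WT, shTST and overTST, described by the submitters as independent replicates. Per the submitters' processing notes, reads were trimmed with Trimmomatic 0.36, aligned to GRCh38 with STAR 2.5.2b and counted with featureCounts of Subread 1.5.2. The deposited values are raw read counts per Ensembl gene. Whether counting used strand is not given in the sources used here. Of 57500 identifiers, 56898 matched GENCODE 29, which gave symbols and exons.

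Counts were tested with edgeR 4.0.16 (quasi-likelihood test, TMM factors, filterByExpr, R 4.3.3) at a Benjamini-Hochberg adjusted p of 0.05 over all genes tested. Comparisons with WT used the 8 libraries concerned, and shTST against overTST all 12. The standard error was derived from the log2 fold change and the F statistic. CPM used TMM factors over 12 libraries. Exact permutation tests on CPM were two-sided, and p-values measure the spread between these libraries. The labels name no separate transductions within a group, so the spread between transductions is not known from them. The steps were tested on simulated data. DESeq2 1.42.0, limma 3.58.1 (voom), other scalings and filters, a block on replicate number, length and GC corrections, and leaving out each library were tried. The biological coefficient of variation was 5.85% to 6.41%, and no replicate pair matched within sampling noise. Replicates differed most in WT, where the chi-square per gene was 35.3 between replicates 1 and 4 and 5.87 between replicates 1 and 3. The largest value was 8.20 in shTST and 9.64 in overTST. The cause was not tested. Library totals of 22911380 to 45120508 counts set the precision. Named genes were the 6 members, their exonic neighbours, up to 4 called genes with the smallest p per partner list and comparison, and the 3 nearest patterns to TST and to MPST. ETHE1, URM1, MOCS2, GPHN, MARC1 and MARC2 were named beyond this rule in some comparisons, after their values were seen. The members and lists were chosen with earlier results of these data known.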

Additional observations from a re-analysis of the deposited data

Results flagged for a closer look

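Among the 18 sets of 4 replicates examined (6 genes in 3 groups), 2 held a library far from the other 3, where chance gives about 1 in 20. TST in shTST replicate 3 was the highest of its group at 36.5 CPM, and its distance to the next library was 0.841 of the group's range. That library still lay below every WT library. MOCS3 in overTST replicate 2 was the highest of its group at 28.95 CPM, with 0.883 of the range.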

How the results depend on the processing

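The lower TST in shTST and the lower TSTD2 in overTST passed the test in every fit run, at −0.55 to −0.43 and −0.65 to −0.52. Without 1 library, 1513 to 2336 genes were called with shTST (lowest without shTST replicate 1). With the length correction TST in overTST was 0.097 (adjusted p = 0.201, edgeR), and 0.094 (adjusted p = 0.159) with the replicate block as well. MPST in overTST passed at 0.15 with upper-quartile scaling, 0.21 with the length correction, 0.13 with the replicate block and 0.21 with both, and was 0.093 to 0.18 without 1 library. MPST in shTST passed at −0.12 with the replicate block and −0.11 with block and length correction, which made the called members 2. With overTST, 4 members were called with upper-quartile scaling. The cause was not tested. Libraries with the same replicate number correlated at −0.0527 to 0.0801 over 12 pairs, so the numbers were not taken to pair the samples, although 3 of 4 WT and shTST libraries correlated best with their own number (1 of 4 in each other comparison). The block also made the calls among the MOCS3 partners with shTST 4 in place of 2. Depth limits TSTD3 (25 to 40 counts) and TSTD1 (0 to 4 counts) most.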
